A study of Homo sapiens with 12 samples.

Results

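Desmosomes are described here through 10 genes: DSG2, DSG3, DSC2, DSC3, DSP, JUP, PKP1, PKP2 and PKP3, which encode desmosome proteins, and PERP. They were chosen by name, and the transcript abundances of each were summed to a gene value, giving 10 genes of the 27309 that were above 0 in the series. RNA was sequenced from AsPC-1 and PANC-1 (ASPC1 and PANC1 in the labels), established human pancreatic cancer cell lines. Each line was given a mock control, TAp63 overexpression or deltaNp63 overexpression, so that the 12 libraries fell into 6 groups of 2 biological replicates. The labels name no vector, promoter or time point, and the mock cultures carry no stated construct. TP63 encodes a p53-family transcription factor of squamous epithelium; its TAp63 proteins carry an N-terminal activation domain that the deltaNp63 proteins, started from an internal promoter, lack. Each line stands for a single tumour, so a difference between the lines is a difference between these cultures and not between classes of tumour. Values are in TPM, a relative transcript abundance that is scaled for transcript length and carries no read depth, so the depth was unknown and precision came from the replicates alone.

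Desmosomes are button-like junctions that fasten epithelial cells to each other and anchor their keratin filaments. Desmogleins (DSG) and desmocollins (DSC) are the cadherins that span the gap between cells. Plakoglobin (JUP) and the plakophilins (PKP) bind the cadherin tails, and desmoplakin (DSP) links this plaque to keratin. PERP is a small membrane protein of desmosomes that is known as a target of p53 and p63, and p63 is known to act on several desmosome genes in skin. The comparisons therefore ask whether these genes moved when either p63 class was raised in pancreatic cancer cells.

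TP63, the overexpressed gene, was read first as a check of the labels. Its values in AsPC-1 were 1.10 and 0.817 TPM in mock, 102 and 169.7 TPM with TAp63, and 245 and 350.4 TPM with deltaNp63. The PANC-1 values were 0.119 and 0.0245 TPM in mock, 324 and 342 TPM with TAp63, and 815 and 1187 TPM with deltaNp63. Every overexpression library was above every mock library of its line, although the gene sum does not tell the protein classes apart. Replicate libraries correlated with Pearson's r of 0.987 to 0.994 across genes. Of 6 epithelial markers, all were lower in PANC-1 than in AsPC-1 mock cultures, and their summed level was 7178 to 10608 TPM over the AsPC-1 libraries and 3483 to 3852 TPM over the PANC-1 libraries. Of all 14767 tested genes, 4121 (27.9%) were called lower and 6590 higher in PANC-1 mock cultures. Of 4 mesenchymal markers, 3 passed the test as higher in PANC-1 (FN1 was at 0.53 with an adjusted p of 0.061 by limma). The 4 summed to 4336 to 4986 TPM over PANC-1 libraries, against 2015 to 2378 TPM over those of AsPC-1. The leukocyte markers PTPRC and CD3E and the endothelial markers CDH5 and VWF stayed under 1 TPM in every library, and the leukocyte list summed to 90.8 to 126 TPM over AsPC-1 libraries against 255 to 288 TPM over those of PANC-1, through CD68. The fibroblast marker list summed to at most 1.29 TPM over AsPC-1 libraries but reached 80.9 to 111.5 TPM over those of PANC-1, where COL1A1 supplied nearly all of it and COL1A2 and DCN stayed under 1 TPM. The part of these marker levels in the differences between the lines was not tested.

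The motifs asked about here were letters bound by p63 and p53, and the E-box bound by SNAI and ZEB repressors of epithelial genes. JUP and DSC2 have a window with the E-box that is not printed. The promoters of 4 other members that carry a motif are shown. Each is the stretch of 250 bases before the start of the gene in RefSeq (GRCh38.p14), read 5′ to 3′ on the strand of the gene. Capitals mark the E-box CACCTG, or CAGGTG where it lies on the other strand, in DSG2 and DSP, and the p53-family half-site in DSG3 and DSC3. The windows are chr18:31497927-31498176 (plus strand) for DSG2, chr6:7541421-7541670 (plus strand) for DSP, chr18:31447491-31447740 (plus strand) for DSG3 and chr18:31042743-31042992 (minus strand) for DSC3.
DSG2: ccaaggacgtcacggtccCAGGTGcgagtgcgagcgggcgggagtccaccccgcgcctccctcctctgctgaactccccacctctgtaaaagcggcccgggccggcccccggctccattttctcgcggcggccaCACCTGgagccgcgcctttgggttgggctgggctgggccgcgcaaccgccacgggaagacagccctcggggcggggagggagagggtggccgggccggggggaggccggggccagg
DSP: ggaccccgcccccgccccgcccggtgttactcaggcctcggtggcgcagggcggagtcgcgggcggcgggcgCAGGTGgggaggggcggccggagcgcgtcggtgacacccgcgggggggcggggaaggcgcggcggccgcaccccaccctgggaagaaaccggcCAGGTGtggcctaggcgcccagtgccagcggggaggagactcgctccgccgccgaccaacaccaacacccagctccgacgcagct
DSG3: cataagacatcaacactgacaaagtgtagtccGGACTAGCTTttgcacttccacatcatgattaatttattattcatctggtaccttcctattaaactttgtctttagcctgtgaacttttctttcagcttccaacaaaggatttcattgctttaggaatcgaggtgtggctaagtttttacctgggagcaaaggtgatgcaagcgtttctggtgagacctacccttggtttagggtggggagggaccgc
DSC3: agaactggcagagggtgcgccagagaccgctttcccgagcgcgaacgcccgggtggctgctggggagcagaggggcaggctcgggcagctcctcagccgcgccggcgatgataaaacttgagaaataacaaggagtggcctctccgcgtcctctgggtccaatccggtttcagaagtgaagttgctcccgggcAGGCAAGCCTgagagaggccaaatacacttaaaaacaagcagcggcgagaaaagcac

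Both motifs were searched on both strands in every promoter available for the members, 10 windows for 8 genes; PKP2 and PKP3 had no entry. The E-box was present in 4 of the 10 windows, against 17.5% of the 35116 promoters in the RefSeq table. It began 232 and 116 bases before the start of DSG2 and 178 and 85 bases before that of DSP. One of the JUP windows held it at 54 and 43 bases, and one of the DSC2 windows at 156 bases. The half-site was present in 2 of the 10 windows, against 5.57% of all promoters, at 218 bases in DSG3 and at 57 bases in DSC3. The PERP window held neither motif, which says only that these letters are not in this stretch. No printed window holds both motifs, and a match is a description of letters, not of binding. The DSG3 window had the lowest share of G or C of the 10, 42.8%, with 4 CpG pairs. In the same cluster on chromosome 18, DSG2 had 75.2% and 26, DSC3 60.4% and 18, and the DSC2 windows 59.6% and 12, and 66.8% and 19. On chromosome 6, DSP had 78% and 33 and PERP 77.2% and 34. The median over all promoters was 58% and 11 CpG pairs, and 34.3% of promoters had as few CpG pairs as DSG3 or fewer.

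No desmosome gene and not PERP passed the test in any comparison of a construct with mock, whereas all 8 members that could be tested were lower in PANC-1 than in AsPC-1 mock cultures. A gene was tested where it reached 1 TPM in at least 2 libraries. DSC3 and PKP1 reached it in 0 of 12 libraries. DSG3 and PKP2 reached it only in the 6 AsPC-1 libraries, so they entered the test through the line in which they were high, and the count of 8 is not support for a difference between the lines.

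**Figure D1:**
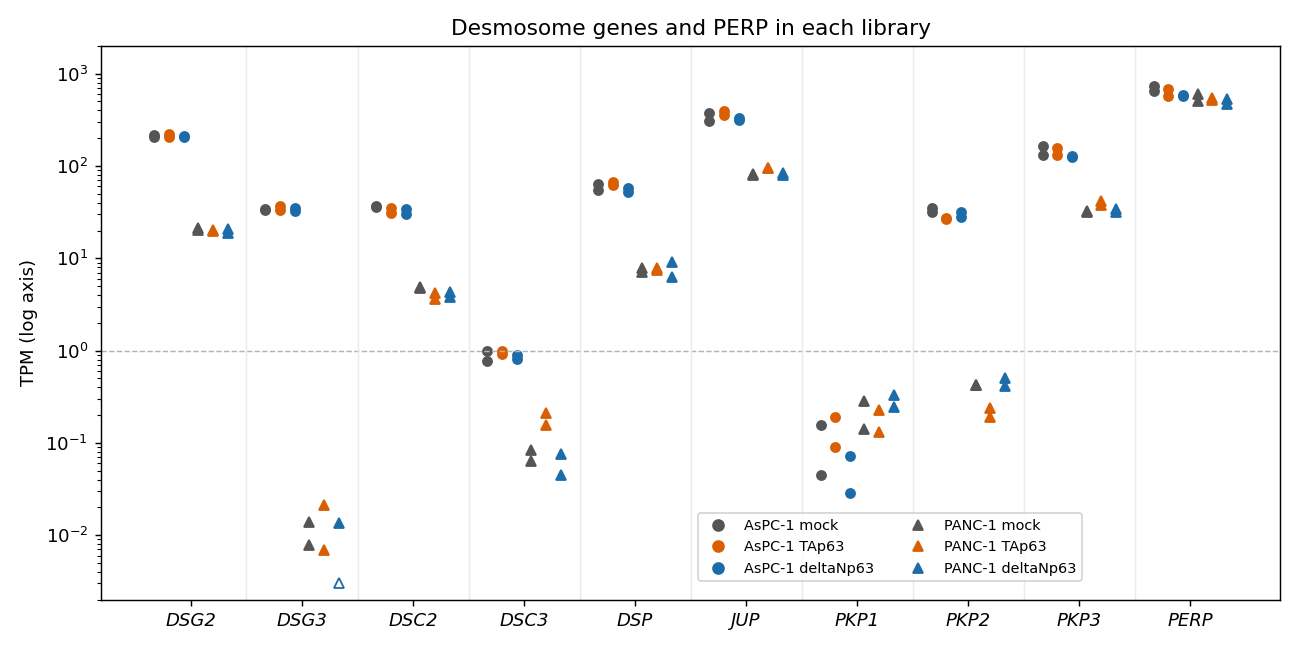
TPM of the 10 genes in each of the 12 libraries on a log axis, with circles for AsPC-1, triangles for PANC-1, colours for the construct and a dashed line at 1 TPM. Values of 0 are drawn as open symbols at 0.003 TPM. PERP lies between 474 and 745 TPM in all libraries, and DSG3 is near 34 TPM in AsPC-1 and under 0.022 TPM in PANC-1.

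Among the desmosomal cadherins, DSG2 was the most abundant. DSG2 (ENSG00000046604, chr18:31498177-31549008, plus strand) is the desmoglein found in simple as well as stratified epithelium. In AsPC-1 it was at 218 and 206 TPM in mock, 225 and 205 TPM with TAp63, and 213 and 206 TPM with deltaNp63. PANC-1 held 20.2 and 21.0 TPM in mock, 20.5 and 19.7 TPM with TAp63, and 18.6 and 20.8 TPM with deltaNp63. The 3 groups of each line overlapped, and every AsPC-1 library was about an order of magnitude above every PANC-1 library. Its spread was the narrowest of the 10 genes, with a coefficient of variation of 3.75% over the 6 AsPC-1 libraries and 4.47% over the 6 PANC-1 libraries.

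DSG3 (ENSG00000134757, chr18:31447741-31478702, plus strand) is a desmoglein of stratified squamous epithelium and the main antigen of pemphigus vulgaris. The AsPC-1 mock libraries held it at 33.5 and 34.1 TPM, followed by 36.9 and 33.3 TPM with TAp63 and 34.7 and 32.8 TPM with deltaNp63. In PANC-1 it was at or below 0.0213 TPM in every library and was listed at 0 in one of the deltaNp63 libraries. AsPC-1 thus held this squamous desmoglein already in mock cultures, with construct and mock libraries overlapping, and PANC-1 held almost none with any construct. DSG3 made up 13.3% to 14.2% of the desmoglein TPM in AsPC-1.

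DSC2 (ENSG00000134755, chr18:31058840-31102522, minus strand), the broadly expressed desmocollin, was at 37.1 and 35.5 TPM in AsPC-1 mock. It was at 35.0 and 31.0 TPM with TAp63 and at 34.5 and 29.9 TPM with deltaNp63, below both mock libraries in all 4. In PANC-1 it was at 4.92 and 4.77 TPM in mock, 4.17 and 3.62 TPM with TAp63, and 3.77 and 4.28 TPM with deltaNp63. Here too every construct library was below both mock libraries, by less than the test required. DSC3 (ENSG00000134762, chr18:30989365-31042815, minus strand), a desmocollin of basal squamous cells, stayed between 0.766 and 0.988 TPM in AsPC-1 but between 0.0448 and 0.212 TPM in PANC-1. Its highest PANC-1 values, 0.212 and 0.156 TPM, were those of the TAp63 libraries, against 0.0835 and 0.0641 TPM in mock. In limma without the filter on low values this difference was 0.14 on the log2 scale (95% confidence interval -0.022 to 0.30, adjusted p = 0.97).

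All of these cadherins lie in 1 cluster, chr18:30989365-31549008, which spans 559.6 kb and holds 7 genes. From the low coordinate upward these are DSC3, DSC2 and DSC1 on the minus strand and DSG1, DSG4, DSG3 and DSG2 on the plus strand. Levels did not follow position: DSG2 and DSG3 at one end were at medians of 209.8 and 33.8 TPM over the AsPC-1 libraries, DSC2 towards the other end at 34.8 TPM, and the genes between them near 0. DSG4, a desmoglein of hair, ranged from 0.185 to 0.551 TPM in AsPC-1. DSG1, the desmoglein of upper epidermis, was at most 0.0467 TPM there, and both DSG4 and DSG1 were listed at 0 in all 6 PANC-1 libraries. DSC1 reached at most 0.0483 TPM in AsPC-1 libraries and 0.0522 TPM in those of PANC-1. The overlapping antisense genes were low, at most 0.241 TPM for DSG2-AS1 and 0.653 TPM for DSCAS over DSC2, and the labels name a stranded library kit, though the counting is not described.

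**Figure D2:**
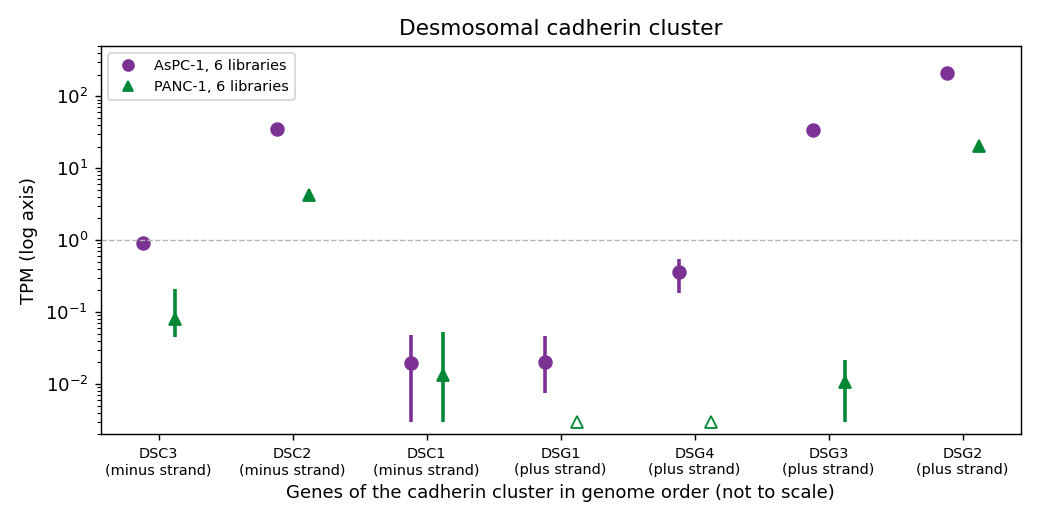
Genes of the desmosomal cadherin cluster in genome order against TPM on a log axis, with the median (symbol) and the lowest to highest value (bar) over the 6 libraries of each line; values of 0 are drawn at 0.003 TPM, open where the median is 0, and the dashed line is 1 TPM. In AsPC-1 DSC2, DSG3 and DSG2 lie above 1 TPM, and in PANC-1 DSC2 and DSG2 do.

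JUP (ENSG00000173801, chr17:41754604-41786931, minus strand) encodes plakoglobin, an armadillo protein of both desmosomes and adherens junctions. AsPC-1 held it at 309.6 and 379.7 TPM in mock, 359 and 399 TPM with TAp63, and 317 and 335 TPM with deltaNp63. PANC-1 values were 80.9 and 80.5 TPM in mock, 94.8 and 95.8 TPM with TAp63, and 80.6 and 83.7 TPM with deltaNp63. Both PANC-1 TAp63 libraries were thus above the other 4 PANC-1 libraries. The difference from mock was 0.24 on the log2 scale (95% confidence interval 0.017 to 0.46), with an unadjusted p of 0.0373 and an adjusted p of 1 by limma with Benjamini-Hochberg adjustment.

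PKP3 (ENSG00000184363, chr11:392614-404908, plus strand), the plakophilin of most epithelia, was at 132 and 165 TPM in AsPC-1 mock. It was at 132 and 155 TPM with TAp63 and at 127 and 129 TPM with deltaNp63. PANC-1 libraries held 31.8 and 32.9 TPM in mock, 41.3 and 38.0 TPM with TAp63, and 34.2 and 31.8 TPM with deltaNp63. As with JUP, the PANC-1 TAp63 libraries were the highest of that line. The difference from mock was 0.29 on the log2 scale (95% confidence interval 0.021 to 0.55), with an unadjusted p of 0.0371 and an adjusted p of 1 by limma.

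PKP2 (ENSG00000057294, chr12:32790745-32896798, minus strand), a plakophilin of heart and simple epithelium, was at 34.7 and 32.0 TPM in AsPC-1 mock. It was at 26.4 and 27.6 TPM with TAp63 and at 31.7 and 27.7 TPM with deltaNp63, below mock in all 4 libraries. In PANC-1 it was at 0.422 and 0.420 TPM in mock, 0.241 and 0.192 TPM with TAp63, and 0.412 and 0.505 TPM with deltaNp63. The TAp63 libraries were thus the lowest of each line. In AsPC-1 the difference between TAp63 and mock was -0.30 on the log2 scale (95% confidence interval -0.55 to -0.046), with an unadjusted p of 0.0248 and an adjusted p of 0.254 by limma. PKP1 (ENSG00000081277, chr1:201283452-201332993, plus strand), the plakophilin of suprabasal epidermis, stayed at or below 0.327 TPM in every library.

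DSP (ENSG00000096696, chr6:7541338-7586714, plus strand) encodes desmoplakin, the link to keratin that all desmosomes need. AsPC-1 held 55.4 and 64.0 TPM in mock, 61.5 and 66.8 TPM with TAp63, and 58.3 and 52.5 TPM with deltaNp63. PANC-1 held 7.15 and 7.80 TPM in mock, 7.77 and 7.52 TPM with TAp63, and 6.32 and 9.06 TPM with deltaNp63. No order of the constructs held in both lines, and the 2 PANC-1 deltaNp63 libraries were the lowest and the highest of that line. The antisense gene DSP-AS1 reached 4.13 TPM at most.

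PERP (ENSG00000112378, chr6:138088505-138107419, minus strand) was the most abundant of the 10 genes in every library. AsPC-1 held 745 and 652 TPM of it in mock, 689 and 571 TPM with TAp63, and 572 and 592 TPM with deltaNp63. PANC-1 held 608 and 504 TPM in mock, 547 and 522 TPM with TAp63, and 528 and 474 TPM with deltaNp63. The mock groups held the highest single value of each line, and no construct library exceeded the highest mock library of its line. With deltaNp63 in AsPC-1, both libraries were below both mock libraries, by -0.26 on the log2 scale (95% confidence interval -0.52 to 0.0018), with an unadjusted p of 0.0513 and an adjusted p of 0.171 by limma. The other differences of PERP from mock were -0.15 (-0.41 to 0.11) with TAp63 in AsPC-1, -0.052 (-0.31 to 0.21) with TAp63 in PANC-1 and -0.15 (-0.41 to 0.12) with deltaNp63 in PANC-1, each with its 95% confidence interval. All 4 intervals exclude a rise of 1 log2 unit.

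Across the tested members, 0 of 8 passed an adjusted p of 0.05 by limma in any of the 6 comparisons among constructs within a line. The share of all 14767 tested genes that passed was 0.637% for TAp63 against mock in AsPC-1, 7.14% for deltaNp63 against mock in AsPC-1 and 0.0203% for TAp63 against deltaNp63 in AsPC-1. In PANC-1 the same comparisons passed 0.00677%, 0.0406% and 0.0271% of genes. For TAp63 against mock in PANC-1 this was 1 gene, TP63 itself. A count of 0 among 8 genes is near this background in all 6 comparisons, as fitted here with all 12 libraries. At an unadjusted p under 0.05, 1 member (PKP2) was past the threshold for TAp63 in AsPC-1, against 15.1% of all genes. DeltaNp63 in AsPC-1 had 0 members, against 29.7% of genes, and TAp63 against deltaNp63 there had 0, against 7.92%. In PANC-1 TAp63 against mock had 3 members (DSC2, JUP and PKP3), against 3.41% of genes, deltaNp63 had 0, against 2.34%, and TAp63 against deltaNp63 had 1 (PKP2), against 2.96%. PKP2 and DSG3 were under 1 TPM in every PANC-1 library and entered the test through AsPC-1. The PANC-1 counts of members in this paragraph include them and are therefore descriptions. DSC2 in PANC-1 with TAp63 was at -0.26 on the log2 scale (95% confidence interval -0.52 to -9.2e-05, unadjusted p = 0.0499, adjusted p = 1 by limma). The groups did not overlap for 2, 4 and 4 members in the AsPC-1 comparisons, in the order above, and for 4, 1 and 3 in the PANC-1 comparisons. Over all tested genes the shares without overlap were 46.6%, 52.1% and 29.5% for the AsPC-1 comparisons, and 42.4%, 27.1% and 34.0% for those of PANC-1.

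The fitted differences were small. With TAp63 in AsPC-1 the members' log2 fold changes ran from -0.30 (PKP2) to 0.14 (JUP), with a median of -0.014 against -0.076 over all tested genes. With deltaNp63 in AsPC-1 all 8 were below 0, from -0.26 (PERP) to -0.0021 (DSG3), with a median of -0.13. All tested genes had a median of -0.12 there, and 30.8% of them were above 0, so the members' median lay beside that of all genes. Centring each library on its own median moved these values up by 0.21, after which 7 of the 8 were positive and PERP was negative. With TAp63 in PANC-1 the members ran from -0.26 (DSC2) to 0.29 (PKP3), with a median of -0.017 against 0 over all genes. With deltaNp63 in PANC-1 they ran from -0.22 (DSC2) to 0.037 (PKP2), with a median of 0.0068 against -0.015. The comparisons with TAp63 and with deltaNp63 share their mock libraries in each line and are not independent. Over all 4 comparisons with mock, the 95% confidence intervals of the members reached from -0.55 to 0.55, so none included a change of 1 log2 unit. For DSG3 and PKP2 in PANC-1 this limit says little, since log2(TPM + 1) flattens differences between values near 0.

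**Figure D3:**
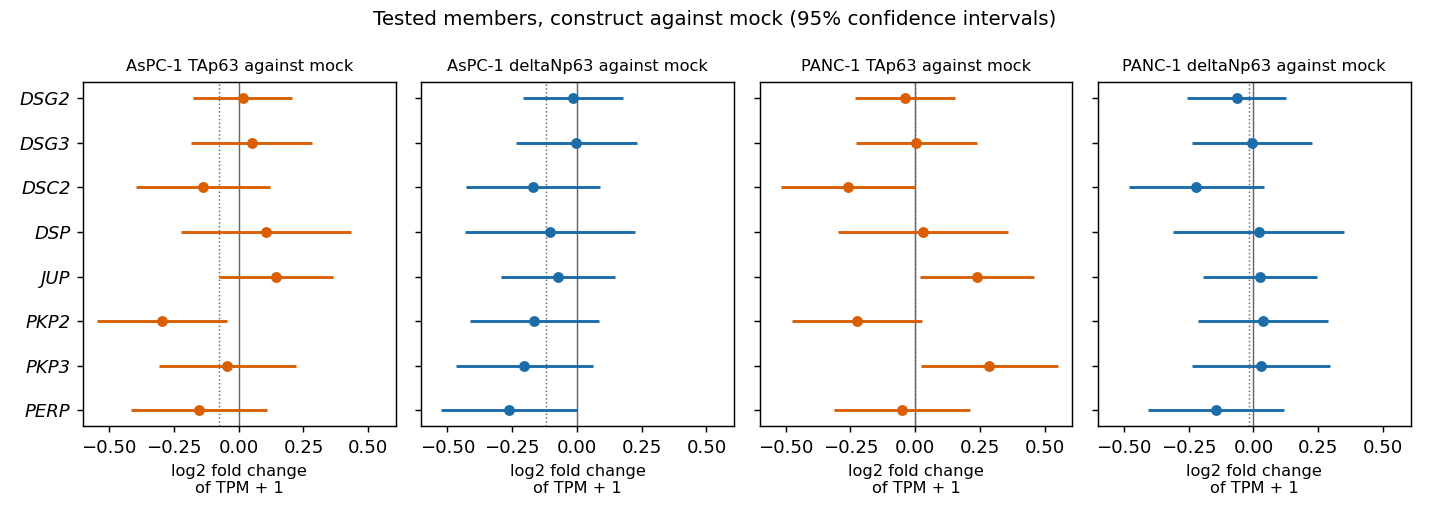
Log2 fold changes of the 8 tested members with 95% confidence intervals from limma, 1 panel per comparison of a construct with mock; the solid line is 0 and the dotted line is the median over all tested genes. Every interval lies between -0.55 and 0.55, and in AsPC-1 with deltaNp63 all 8 points are at or left of 0, around the median of all genes.

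The effect of a construct was also compared between the lines within the same model. For TAp63, 0 of 8 members differed, against 0.0745% of all genes, and the differences ran from -0.12 (DSC2) to 0.33 (PKP3, 95% confidence interval -0.045 to 0.71, adjusted p = 0.518). For deltaNp63, 0 of 8 differed, against 0.582% of all genes, with differences from -0.049 (DSC2) to 0.23 (PKP3, 95% confidence interval -0.14 to 0.61, adjusted p = 0.494). At an unadjusted p under 0.05 there were 0 members in both, against 10.4% and 16.5% of all genes.

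The mock cultures of the lines differed far more than the constructs did. All 8 tested members were lower in PANC-1 mock than in AsPC-1 mock by limma, against 27.9% of all tested genes called lower in PANC-1 and 72.5% called in either direction. The cadherins differed by -5.11 (DSG3), -3.30 (DSG2) and -2.67 (DSC2) on the log2 scale. The plaque proteins differed by -4.59 (PKP2), -2.84 (DSP), -2.16 (PKP3) and -2.07 (JUP). Apart from PERP, which is given below, adjusted p-values of the 5 members above 1 TPM in every library ran from 3.68e-10 to 8.73e-08. DSG3 and PKP2 entered the test through AsPC-1 alone, so their values are a description. Their size depends on the pseudocount, being -8.26 and -6.00 with a pseudocount of 0.1, and no ratio is given for them since their PANC-1 values are near 0. The median over all tested genes was 0.24, higher in PANC-1, against -2.76 over the 8 members. In cultures measured in bulk, fewer cells that express a gene and less RNA per cell cannot be told apart. As ratios of mean TPM, AsPC-1 mock exceeded PANC-1 mock 10.3-fold for DSG2, 7.99-fold for DSP, 7.50-fold for DSC2, 4.59-fold for PKP3 and 4.27-fold for JUP. Beside the tested members, DSC3 was at -0.80 (adjusted p = 3.28e-05) and PKP1 at 0.14 (adjusted p = 0.226) in limma without the filter on low values. The epithelial markers were called lower and 3 of 4 mesenchymal markers called higher in the same comparison, as given above: EPCAM was at -4.77 and ESRP1 at -5.35. Their part in the members' difference was not tested.

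PERP stood apart from the desmosome genes in this comparison. Its mock difference was -0.33 (95% confidence interval -0.59 to -0.070, adjusted p = 0.0266 by limma), a ratio of 1.26. This call was lost without AsPC-1 mock replicate 1, where the difference was -0.24 with an adjusted p of 0.168, and without PANC-1 mock replicate 2, where it was -0.20 with an adjusted p of 0.216. It was also lost without the filter on low values (adjusted p = 0.0649) and in a test of transcripts (adjusted p = 0.0508). Over all 6 libraries of each line, PERP ran from 571 to 745 TPM (median 622 TPM) in AsPC-1, and from 474 to 608 TPM (median 525 TPM) in PANC-1, and these ranges overlapped. The 9 desmosome genes together ran from 815 to 919 TPM in AsPC-1, and from 144 to 169 TPM in PANC-1. PERP was therefore 38.4% to 47.6% of the summed TPM of the 10 genes in AsPC-1 and 75.9% to 80.7% in PANC-1.

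**Figure D4:**
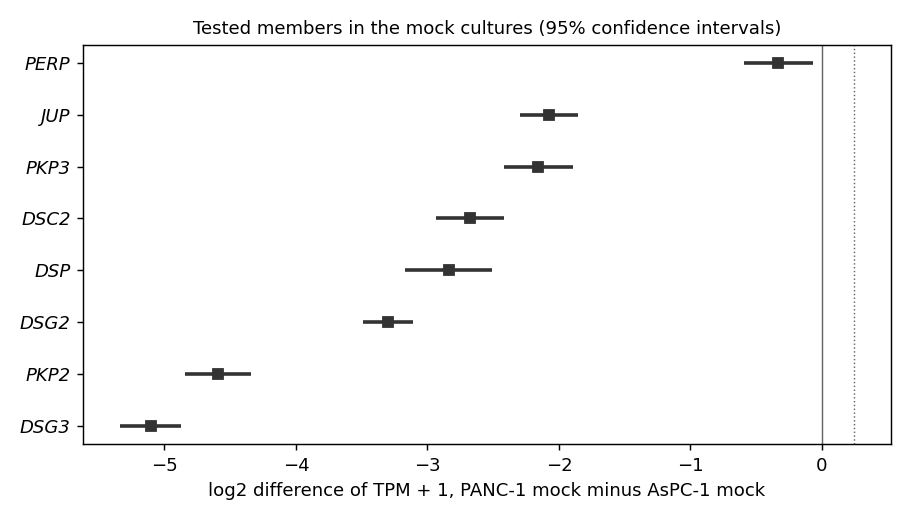
Log2 difference of TPM + 1 between PANC-1 mock and AsPC-1 mock for the 8 tested members, with 95% confidence intervals from limma; the solid line is 0 and the dotted line is the median over all tested genes, 0.24. DSG3 and PKP2 lie furthest below 0, at -5.11 and -4.59, and PERP nearest to it, at -0.33.

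The makeup of the desmosome transcripts can be described beside their amount. The following quantities were chosen after their values were seen, so they are given over the 6 libraries of each line, all constructs included, with no test. The ratio of desmoglein to desmocollin TPM ran from 6.60 to 7.78 in AsPC-1, and from 4.04 to 5.21 in PANC-1. The ratio of JUP to DSP ran from 5.43 to 6.38 in AsPC-1, and from 9.24 to 12.8 in PANC-1. PKP3 was 79.0% to 84.8% of the plakophilin TPM in AsPC-1 and 97.7% to 99.2% in PANC-1, where PKP2 was nearly absent. This last share restates the level of PKP2.

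Shares of transcripts within a gene are given in the same way. DSP-201 encodes the long form of desmoplakin, with 8613 coding bases, and DSP-202 a short form with 6816, which lacks a stretch of 1797 bases in exon 23 of 24 (chr6:7579773-7581569). DSP-202 was 40.0% to 45.6% of the DSP TPM in AsPC-1 and 22.8% to 37.7% in PANC-1. The ranges of the lines did not overlap. Within AsPC-1 both deltaNp63 libraries lay just above the mock libraries, which were at 43.0% and 43.8%, and the other construct groups overlapped mock. JUP-201 and JUP-203 have the same number of coding bases, 2235, and JUP-212 is a short transcript with 312. JUP-203 was 26.0% to 29.4% of the JUP TPM in AsPC-1 and 39.5% to 43.5% in PANC-1. With TAp63 it lay above mock in AsPC-1, at 28.5% and 29.4% against 27.5% and 27.6%. In PANC-1 it lay below mock with TAp63, at 39.5% and 41.2% against 42.2% and 43.5%. The deltaNp63 libraries overlapped mock in both lines. JUP-212 was 12.4% to 14.2% in AsPC-1 and 3.09% to 6.69% in PANC-1. Within PANC-1 all 4 construct libraries, at 4.32% to 6.69%, lay above both mock libraries, at 3.09% and 3.81%. In the limma test of transcripts, JUP-212 with TAp63 in PANC-1 was at 0.70 on the log2 scale (unadjusted p = 0.0036, adjusted p = 0.627). DSC2-201 carries an extra exon of 46 bases (exon 16 of 17, chr18:31068299-31068344) and encodes the shorter DSC2 tail, with 2541 coding bases against 2703. Its share overlapped between the lines, from 30.7% to 42.4% in AsPC-1, and from 28.7% to 49.6% in PANC-1. DSG2, DSG3 and PERP have 1 transcript each in the table. In a limma test of all transcripts, no tested transcript of a member passed in any comparison among constructs, or in the comparison of a construct's effect between the lines, with adjusted p-values of 0.393 and above. Of all 47437 transcripts tested, 45, 135 and 6 passed in the AsPC-1 comparisons (TAp63 against mock, deltaNp63 against mock, TAp63 against deltaNp63) and 7, 10 and 11 in the same comparisons of PANC-1, so a count of 0 is near the background. Shares rest on how reads common to several transcripts were divided, which is not given in the sources used here.

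**Figure D5:**
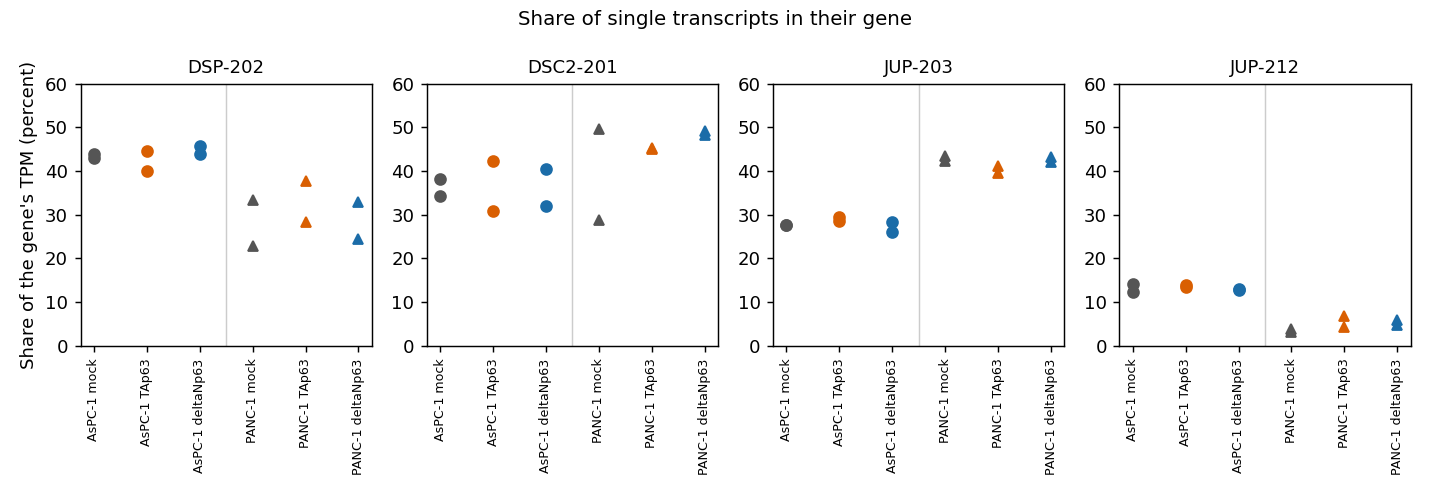
Share of DSP-202, DSC2-201, JUP-203 and JUP-212 in the TPM of their gene, in percent, with 1 point per library, circles for AsPC-1 and triangles for PANC-1. The lines separate for DSP-202, JUP-203 and JUP-212 and overlap for DSC2-201, and the constructs within a line do not separate in a like way in both lines.

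Of the other desmosome and plakin genes, 6 of 9 listed were tested. EVPL (envoplakin, a plakin of the epidermal envelope) and CDSN (corneodesmosin, a glue protein of cornifying cells) fell with deltaNp63 in AsPC-1, 2 of 6 against 7.14% of all genes. EVPL was at 6.66 and 5.98 TPM in mock and 2.55 and 3.98 TPM with deltaNp63, a log2 fold change of -0.80 (95% confidence interval -1.17 to -0.42, adjusted p = 0.0334 by limma). CDSN was at 2.00 and 1.86 TPM in mock and 0.791 and 1.02 TPM with deltaNp63, a log2 fold change of -0.62 (95% confidence interval -0.92 to -0.33, adjusted p = 0.0354 by limma). It thus lay close to the 1 TPM needed for testing, and it was too low for the fit with a mean of at least 5 TPM. With TAp63 in AsPC-1 EVPL and CDSN were at -0.52 and -0.61, with adjusted p-values of 0.196 and 0.0893 by limma. Both calls were lost under quantile normalization (adjusted p = 0.0840 for EVPL and 0.0827 for CDSN), under median centring (0.0561 and 0.105) and in a fit of AsPC-1 alone (0.245 and 0.179). Leaving out either AsPC-1 mock replicate or AsPC-1 deltaNp63 replicate 1 ended both calls as well, with adjusted p-values of 0.162, 0.0976 and 0.153 for EVPL and 0.163, 0.104 and 0.181 for CDSN. EVPL lost its call without the filter on low values (0.0821), and CDSN with a pseudocount of 0.1 (0.138). The list's median log2 fold change was -0.47 in AsPC-1 with deltaNp63 and -0.43 with TAp63, beside -0.12 and -0.076 over all genes. The macrophage marker CD68 fell with deltaNp63 in AsPC-1 as well, by 0.39 on the log2 scale (adjusted p = 0.0362), while the other leukocyte markers stayed under 1 TPM; its part was not tested. In AsPC-1 with TAp63, 0 of 6 passed, against 0.637% of all genes, and 4 had an unadjusted p under 0.05 by limma, against 15.1%. With deltaNp63 there, 5 of 6 had an unadjusted p under 0.05 by limma, against 29.7%. In PANC-1, 0 of 6 passed by limma with either construct, against 0.00677% and 0.0406% of all genes with TAp63 and deltaNp63. At an unadjusted p under 0.05 by limma there were 0 with either, against 3.41% and 2.34%. The list's medians there were 0.12 with TAp63 and 0.040 with deltaNp63. CDSN was near 0 in PANC-1 mock, where log2(TPM + 1) flattens differences, so its part in these counts says little.

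Between the mock cultures this list did not go with the members. PPL (periplakin), KAZN (kazrin) and EVPL, which meet in a plakin complex at the cell border, were higher in PANC-1. Their log2 differences were 2.16, 1.44 and 0.73, and CDSN was lower, at -1.49. Of all 14767 tested genes, 6590 were called higher in PANC-1 and 4121 lower. CDSN was near 0 in PANC-1 mock and entered the test through AsPC-1, as DSG3 and PKP2 did, so its difference is a description. PPL ran from 2.87 to 4.98 TPM over the 6 AsPC-1 libraries and from 21.4 to 30.7 TPM over the 6 of PANC-1. PKP4, an armadillo protein of both junction types, was at 0.11 (adjusted p = 0.459).

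Adherens junction, tight junction and keratin genes were read beside the members. None of the 10 tested adherens junction genes, 11 tight junction genes and 5 tested keratins passed in a comparison of a construct with mock by limma. At an unadjusted p under 0.05, with TAp63 and deltaNp63 in turn, there were 2 and 1 adherens junction genes, 1 and 1 tight junction genes and 1 and 1 keratins in AsPC-1, against 15.1% and 29.7% of all genes. In PANC-1 there were 0 and 0, 0 and 0, and 0 and 2, against 3.41% and 2.34% of all genes. Between the mock cultures 7 adherens junction genes were called lower in PANC-1, against 27.9% of all genes called lower and 72.5% called in either direction, and 2 were called higher, with a median of -0.49 beside 0.24 over all genes. CDH1 (E-cadherin) was at -4.55 and CDH3 (P-cadherin) at -2.91, while CDH2 (N-cadherin) was at 4.47 and VCL (vinculin) at 0.65. Of the tight junction genes, 10 of 11 were called lower in PANC-1, against the same 27.9% of all genes, with a median of -1.76 and the lowest values in TJP3 (-4.04) and CGN (-4.01), and OCLN (occludin) was at -0.040 (adjusted p = 0.815). Of the 5 tested keratins, KRT19 at -1.65, KRT8 at -1.14 and KRT18 at -1.13 were called lower in PANC-1, and KRT17 was called higher, at 1.35. KRT7, the other tested keratin, was on the higher side in PANC-1 and was not called. KRT5, KRT6A and KRT14, keratins of squamous cells, stayed under 1 TPM in every library, those with TAp63 and deltaNp63 included.

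Within a line the members did not vary as a group. With each gene centred on the mean of its line, JUP and PKP3 had the highest correlation of any pair of tested members over the 12 libraries (Pearson's r = 0.85), and JUP and PKP2 the lowest (r = -0.69). DSG2 and DSC2 were at 0.66. The genes most like the members' mean among 10213 genes of at least 5 TPM were TCF7L2 (r = 0.96), TIMP2 (0.95), AEBP2 (0.95), KHDRBS1 (0.93) and OCRL (0.93). Those most like PERP were POLR2D (0.97), G3BP1 (0.94), KNL1 (0.94), MGST2 (0.93) and CKAP2 (0.92). The desmosome genes, which were not picked by their correlation, ranged from -0.35 (DSP) to 0.53 (DSC2) with PERP. High values come with picking the top genes of 10213 over 12 libraries, so the picked genes and the members cannot be set against each other. These correlations are descriptions over libraries that share a line, a construct and a normalization.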

How the data were processed

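RNA was sequenced from 12 cultures, 2 per group of cell line and construct. Per the labels' protocols, a stranded mRNA kit was used on total RNA. A table of TPM values for 153329 transcripts was deposited by the authors, each column summing to 1000000; the aligner, quantifier and annotation are not given in the sources used here. Transcripts were paired with genes through GENCODE release 44 (hg38) for 139819 of them (91.2%), holding 89.6% to 90.5% of the TPM; the other 13510 were left out. Gene sums were analysed as log2(TPM + 1) with limma 3.58.1 in R 4.3.3 (data.table package, version 1.17.8; a mean per group, eBayes with trend, 6 residual degrees of freedom). Genes of at least 1 TPM in at least 2 libraries were tested in 9 contrasts, with Benjamini-Hochberg adjustment over all of them within a contrast and a threshold of 0.05. Fold changes of genes near 0 come out too small on this scale. Of the tests the design allowed, limma was the one for a normalized unit such as TPM. Figures used matplotlib 3.10.9.

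The members, lists and tests were chosen with earlier results of these data known. The members are all named. Of the other lists, genes past the threshold against mock are named, up to 3 per list and contrast, and otherwise up to 2 per list by mean TPM; the list genes named for their difference between the mock cultures were chosen after their values were seen. The labels call the 2 cultures of a group biological replicates. Alternatives were limma without trend, quantile normalization, median centring, no filter on low values, a mean of at least 5 TPM, a pseudocount of 0.1, a fit of 1 line, the replicate number as a block, transcripts in place of genes, and leaving out each replicate. Protein sequences were not used here.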

Additional observations from a re-analysis of the deposited data

How the results depend on the processing

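The count of members called was 0 in every comparison among constructs or between lines under each alternative run. In the mock difference it was 8, and 7 in the test of transcripts and without AsPC-1 mock replicate 1 or PANC-1 mock replicate 2, where PERP lost its call. Without the filter on low values PERP also lost it and DSC3 entered with one. No tested member gained a call. Calls among all genes moved further: for deltaNp63 against mock in AsPC-1, 1055 of 14767 passed in the main fit. That number was 199 under quantile normalization, 419 under median centring, 1633 with the replicate number as a block and 8 in a fit of AsPC-1 alone. The background of 7.14% given for that comparison therefore depends on the fit. It also rests on the AsPC-1 deltaNp63 replicates, the least alike of the 6 groups. Their median absolute log2 difference over tested genes was 0.21, against 0.092 to 0.15 in the other groups. The median log2 fold change over all genes was -0.099 without deltaNp63 replicate 1 and -0.14 without replicate 2. A fit of 1 line was not run for comparisons between lines, and replicates were left out only from the groups compared. Entering the replicate number as a replicate block left 0 members called in the construct comparisons and 8 in the mock difference; the lowest adjusted p of an uncalled member was then 0.0877. Deviations of same-numbered libraries correlated from -0.0945 to 0.293, so the numbers were not taken to pair the samples. The share difference of JUP-203 between the lines was -14.1 percentage points over all libraries and -11.4 in the TAp63 libraries alone. That of DSC2-201 was -8.03 over all libraries, -2.93 in the mock libraries and -12.5 in the deltaNp63 libraries. These alternatives were chosen after seeing the data. Median centring shifted all log2 values by 0.21 for deltaNp63 and 0.13 for TAp63 against mock in AsPC-1, by -0.17 in the mock difference, and by -0.14 and -0.19 in the line differences of the TAp63 and deltaNp63 effects. TPM keeps no depth, so no counting limit could be set. Uncalled log2 values changed sign in 85 fits, with no call in either fit. Of these, 22 were under median centring, where all values of a comparison move by the same amount. What lay behind the other sign changes was not tested.

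Under quantile normalization, for AsPC-1 TAp63 against deltaNp63, DSC2 was at -0.019 and DSG3 at -0.0041. For AsPC-1 deltaNp63 against mock, DSG2 was at 0.0099, DSG3 at 0.13 and DSP at 0.0013. For PANC-1 TAp63 against deltaNp63, DSG3 was at -0.00048 and DSP at -0.00020. For PANC-1 TAp63 against mock, DSG3 was at -0.0070. For the line difference of the TAp63 effect, PKP2 was at -0.014. Under median centring, for AsPC-1 TAp63 against deltaNp63, DSC2 was at -0.042, DSG2 at -0.045 and DSG3 at -0.024. For AsPC-1 deltaNp63 against mock, DSC2 was at 0.036, DSG2 at 0.19, DSG3 at 0.21, DSP at 0.10, JUP at 0.13, PKP2 at 0.043 and PKP3 at 0.0039. For PANC-1 TAp63 against deltaNp63, DSG2 was at -0.0043, DSG3 at -0.020 and DSP at -0.020. For PANC-1 TAp63 against mock, DSG3 was at -0.0047. For PANC-1 deltaNp63 against mock, DSG3 was at 0.015. For the line difference of the deltaNp63 effect, DSP was at -0.062, JUP at -0.088 and PERP at -0.071. For the line difference of the TAp63 effect, JUP was at -0.047, PERP at -0.040 and PKP2 at -0.069. For AsPC-1 TAp63 against mock, PKP3 was at 0.087. In the test of transcripts, for PANC-1 TAp63 against deltaNp63, DSC2 was at 0.030 and DSP at -0.066. For PANC-1 TAp63 against mock, DSP was at -0.058 and PKP2 at 0.063. For PANC-1 deltaNp63 against mock, JUP was at -0.011. With a pseudocount of 0.1, for the line difference of the TAp63 effect, PKP2 was at -0.42.

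With each replicate left out in turn, for AsPC-1 TAp63 against deltaNp63, DSC2 ran from -0.066 to 0.13, DSG2 from -0.036 to 0.10, DSG3 from -0.021 to 0.13 and PERP from -0.026 to 0.24. In PANC-1 TAp63 against deltaNp63, DSC2 ran from -0.12 to 0.042, DSG2 from -0.052 to 0.10 and DSP from -0.22 to 0.24. In the line difference of the deltaNp63 effect, DSC2 ran from -0.15 to 0.051, DSG2 from -0.13 to 0.029, DSG3 from -0.044 to 0.036, DSP from -0.11 to 0.35, JUP from -0.049 to 0.24 and PERP from -0.020 to 0.25. In AsPC-1 TAp63 against mock, DSG2 ran from -0.052 to 0.082, DSG3 from -0.023 to 0.12, JUP from -0.0030 to 0.29 and PKP3 from -0.21 to 0.12. In AsPC-1 deltaNp63 against mock, DSG2 ran from -0.056 to 0.024, DSG3 from -0.042 to 0.038 and JUP from -0.22 to 0.074. In PANC-1 deltaNp63 against mock, DSG2 ran from -0.14 to 0.013, DSG3 from -0.016 to 0.0039, DSP from -0.21 to 0.25, JUP from -0.0015 to 0.052, PKP2 from -0.0094 to 0.083 and PKP3 from -0.022 to 0.081. In the line difference of the TAp63 effect, DSG2 ran from -0.12 to 0.013, DSG3 from -0.12 to 0.028, DSP from -0.18 to 0.029, JUP from -0.053 to 0.24 and PERP from -0.034 to 0.24. In PANC-1 TAp63 against mock, DSG3 ran from -0.0058 to 0.015, DSP from -0.025 to 0.086 and PERP from -0.19 to 0.083.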
